A study of Homo sapiens with 12 samples.

Results

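The transcription factors that set up and maintain hepatocyte identity were followed in HepG2, a human liver cancer line. They were HNF4A, NR1H4, FOXA1, FOXA2, FOXA3, CEBPA, CEBPB, ONECUT1 and PROX1, taken by gene symbol, and each of the 9 was found once among the 58721 genes of the count tables. HepG2 cells received siControl, a control siRNA, or siIGF2BP3, which targets the RNA-binding protein IGF2BP3, and were treated 2 days later with cycloheximide at 100 µg/mL for 4 min to hold ribosomes on their transcripts. For each siRNA 3 Input libraries measured transcripts and 3 RPF libraries measured ribosome-protected fragments of 28 to 30 nt, so that 12 libraries fell into 4 groups. The knockdown was transient, and HepG2 was the 1 cell line used.

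Hepatocyte identity rests on a network of factors that bind each other's genes as well as those of plasma proteins and metabolic enzymes. HNF4A is a nuclear receptor at its centre, the FOXA proteins open chromatin as pioneer factors, and the C/EBP proteins are leucine zipper factors that link differentiation to metabolism and the acute phase. The C/EBP mRNAs are textbook cases of control at initiation, since a short open reading frame near the start codon influences which in-frame ATG ribosomes use, and so how much full-length activator and how much truncated protein is made.

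The sequences around these start codons are shown first because they are what the footprint counts of CEBPA and CEBPB cannot resolve. They were read from hg38 on the canonical GENCODE release 44 transcripts, 5′ to 3′ on the strand of the gene, with start codons, and stop codons where they are reached, in capitals. CEBPA lies on the minus strand of chromosome 19 and CEBPB on the plus strand of chromosome 20, and both have a single exon, as do 5.65% of 19820 canonical coding transcripts.
CEBPA upstream ORF, chr19:33302422-33302445: ctcgccATGccgggagaactcTAA
CEBPA codon 1, chr19:33302394-33302414: ATGgagtcggccgacttctac
CEBPA codon 15, chr19:33302352-33302381: cggcccccgATGagcagccacctgcagagc
CEBPA codon 120, chr19:33302037-33302066: ggcgccgtcATGcccgggggagcgcacggg
CEBPB codon 1, chr20:50191034-50191054: ATGcaacgcctggtggcctgg
CEBPB codon 24, chr20:50191094-50191123: tttaaatccATGgaagtggccaacttctac
CEBPB codon 199, chr20:50191619-50191648: ggcgcaggcATGgcggcgggcttcccgtac
CEBPB out-of-frame ORF, chr20:50191063-50191098: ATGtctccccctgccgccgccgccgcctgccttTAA

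The CEBPA upstream ORF has 5 codons before its stop and ends 7 nt before the ATG at codon 1. The ATG at codon 120 is the start of the truncated CEBPA isoform, which keeps the DNA-binding domain and lacks part of the activation domain. In CEBPB the short frame lies after the ATG at codon 1, has 11 codons before its stop and ends 4 nt before the ATG at codon 24, which starts the main activator form. The ATG at codon 199 starts the inhibitory form. The deposited values are sums over all exons of a gene, so footprints on these short frames cannot be told apart from footprints on the main frame, nor full-length from truncated products.

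Upstream ATGs were found in 6 of the 9 factors, against 41.9% of the 19820 transcripts. Other upstream frames are shown as examples, not as those nearest the main start codon. PROX1 has a frame of 3 codons, and ONECUT1 a start codon followed at once by a stop codon. HNF4A has a frame of 66 codons that runs into the coding sequence out of frame.
PROX1 upstream ORF, chr1:213996508-213996525: ttgaagATGgcacaaTAA
ONECUT1 second upstream ORF, chr15:52789965-52789976: cagccgATGTGA
HNF4A upstream ORF, chr20:44355765-44355794: tcctccATGcccccagctctccggctgggt
NR1H4 carried 3 upstream ORFs that close before the main ATG, and ONECUT1 carried 2 that close and 1 that overlaps it. FOXA1 had 1 overlapping frame, and the canonical leaders of FOXA2, FOXA3 and CEBPB held no ATG. These frames are those of the canonical transcripts, and counts per gene do not show which transcript HepG2 used. HNF4A has 7311 nt of exon, against 4645 nt in its canonical transcript. The coding sequences of CEBPA and CEBPB had GC contents of 74.9% and 73.6%, and those of NR1H4 and PROX1 42.5% and 51.0%, around a median of 52.9% over coding transcripts.

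**Figure D1:**
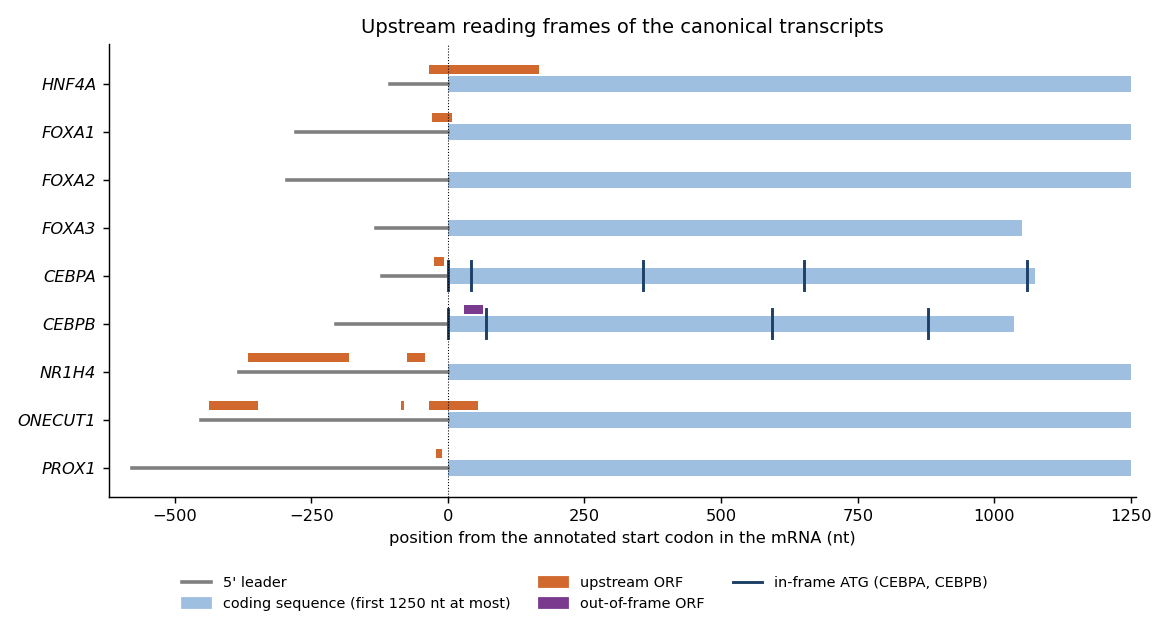
Canonical transcripts drawn to scale from the annotated start codon (0 on the x axis, in nt). Orange bars are upstream ORFs, the purple bar is the out-of-frame ORF of CEBPB, and dark ticks are in-frame ATGs of CEBPA and CEBPB. The first and second NR1H4 frames overlap each other and appear as 1 bar. The CEBPA frame ends just before the start codon and the CEBPB frame just before its ATG at codon 24.

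Library totals were 11219750 to 14797573 counts in Input and 13036423 to 31510601 in RPF, and values are in CPM, counts on a common library total of 1000000. Over all genes siControl RPF replicates 2 and 3 differed by less than the sampling noise (mean chi-square per gene 0.941, against 2.80 and 2.09 for the pairs with replicate 1). They were counted as 1 sample in means and SDs, which leaves n = 2 there, while tests kept the 3 libraries. siIGF2BP3 RPF replicate 1 stood apart, since its mean chi-square against replicates 2 and 3 of its group was 19.8 and 21.5. Replicates 2 and 3 of that group had 1.15 against each other, close to the sampling noise, and were kept as 2 samples. The targeted gene IGF2BP3 was lower in every siIGF2BP3 library than in every siControl library of its assay, with a log2 fold change of -0.39 in Input and -1.59 in RPF (adjusted p = 1.06e-05 and 0.000301, edgeR). The labelled cell type was checked against its markers, and all 8 hepatocyte markers were present in each group, summing to between 51930 and 57230 CPM in Input. The leukocyte marker PTPRC was at 0 in each Input library, and the macrophage markers CD163 and MARCO and the fibroblast marker DCN were at or near 0 in each group. Other markers of these lists were present, with CD68 and CD14 of macrophages at 23.02 and 2.177 CPM in siControl Input. There the stellate or fibroblast markers ACTA2 and COL1A1 were at 33.25 and 0.2151 CPM. The endothelial markers PECAM1, VWF and CDH5 were at 1.485, 0.5899 and 0.6022 CPM. Of the cholangiocyte markers KRT19, SOX9, EPCAM and KRT7 were at 566.4, 283.0, 286.9 and 0.0531 CPM in siControl Input. In siControl RPF the means of KRT19, SOX9 and EPCAM lay between 253 and 296 CPM, and KRT7 was at 1.135 CPM.

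In siControl Input the 9 factors spanned a wide range of abundance. Levels between genes were compared as CPM per kb of exon. CEBPB was highest at 54.2 ± 2.51 (SD, n = 3), followed by FOXA2 at 42.3 ± 1.72, HNF4A at 24.9 ± 0.65, PROX1 at 19.8 ± 1.59, NR1H4 at 16.2 ± 1.00 and FOXA1 at 13.9 ± 1.24. CEBPA at 5.88 ± 0.47, ONECUT1 at 3.84 ± 0.27 and FOXA3 at 1.97 ± 0.29 were the lowest. No neighbours in this order overlapped in their 3 siControl libraries. In siIGF2BP3 Input the order was the same, and PROX1 and NR1H4 overlapped. The exon lengths used are those of all annotated exons. They were 8928 nt for PROX1 and 3627 nt for NR1H4, against 8468 and 2739 nt in the canonical transcripts. Factors close in level could therefore change order with another choice of length.

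The footprints gave another order. As RPF CPM per kb of coding sequence, HNF4A stood first at 213 ± 2.79 (SD, n = 2), followed by CEBPA at 70.3 ± 2.21 and CEBPB at 61.7 ± 2.29. NR1H4 at 41.7 ± 1.50 and PROX1 at 41.1 ± 0.71 overlapped, as did FOXA1 at 34.6 ± 1.81 and FOXA2 at 32.3 ± 0.42, while FOXA3 at 21.1 ± 0.27 and ONECUT1 at 4.10 ± 0.38 were apart from their neighbours. CEBPA thus ranked 7 of 9 by transcript and 2 of 9 by footprint, and FOXA2 2 of 9 by transcript and 7 of 9 by footprint. The 2 orders divide by different lengths, so these shifts in rank hold the lengths as well as the counts. FOXA2 has 2603 nt of exon and 1389 nt of coding sequence, and NR1H4 has 3627 and 1428 nt.

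The ratio of mean RPF CPM to mean Input CPM in siControl divides by no length. It was read against 11634 protein-coding genes that were tested in both assays and have a canonical transcript. Their median was 0.902, and their 10th and 90th percentiles were 0.252 and 2.89. The error of the ratio is the SD of the log2 ratio combined from the 3 Input libraries and the 2 RPF samples. These are descriptions without a test, because exon length and the coding share of a transcript differ between genes.

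FOXA3 (chromosome 19, 45863989 to 45873797, plus strand), a FOXA paralogue expressed in the adult liver, had the highest ratio. The siControl Input libraries held 3.60, 4.60 and 4.76 CPM of it in replicates 1, 2 and 3, and the siControl RPF libraries 22.0, 21.9 and 22.9 CPM. The ratio was 5.13, a log2 ratio of 2.36 ± 0.22, at percentile 97.3 of coding genes. Behind the Input values lay between 45 and 68 counts per library, so they were the least precise of the 9.

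CEBPA (chromosome 19, 33299934 to 33302564, minus strand), an activator that restrains hepatocyte proliferation, was close to it. Its siControl Input libraries held 16.9, 14.5 and 15.1 CPM, and its siControl RPF libraries 77.2, 72.5 and 75.2 CPM. The ratio was 4.88 (log2 2.29 ± 0.12, percentile 96.9), and lay within the combined spread of that of FOXA3. Every RPF library lay above every Input library in CEBPA CPM.

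HNF4A (chromosome 20, 44355700 to 44434596, plus strand) was the remaining factor with more footprints than Input in every library. Its siControl Input values were 185, 176 and 184 CPM, and its siControl RPF values were 286, 287 and 296 CPM. Its ratio was 1.59 (log2 0.67 ± 0.04, percentile 73.3). NR1H4 (chromosome 12, 100473708 to 100564413, plus strand), the bile acid receptor FXR, and FOXA1 (chromosome 14, 37589984 to 37596059, minus strand) had ratios of 1.01 and 0.884, at percentiles 54.8 and 49.1, within each other's spread.

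The other four factors had lower CPM in RPF than in Input in siControl. CEBPB (chromosome 20, 50190734 to 50192689, plus strand), the C/EBP factor of the acute phase, had siControl Input values of 101, 111 and 105 CPM and siControl RPF values of 65.5, 64.0 and 60.3 CPM, and its ratio was 0.603 (log2 -0.73 ± 0.09, percentile 33.5). PROX1 (chromosome 1, 213983181 to 214041502, plus strand), a homeobox factor needed for hepatoblast migration, had a ratio of 0.515 (log2 -0.96 ± 0.12, percentile 27.8). FOXA2 (chromosome 20, 22581005 to 22585455, minus strand) and ONECUT1 (chromosome 15, 52756989 to 52791078, minus strand), also known as HNF6, were lowest at 0.407 and 0.387, at percentiles 20.8 and 19.7, and did not differ beyond their spread. CEBPA and CEBPB, which share single-exon structure, high GC content and short reading frames near a start codon, thus stood on opposite sides of the coding-gene median, and FOXA3 stood apart from FOXA1 and FOXA2.

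Part of a transcript is not read by ribosomes, and the coding sequence took 26.1% of the canonical PROX1 transcript but 56.3% of that of CEBPB, around a median of 49.3%. With the ratio taken per coding share, CEBPA and FOXA3 stayed near the top of coding genes at percentiles 96.2 and 94.2, and HNF4A stood at 84.5. The shares are those of canonical transcripts, which may not be the ones used in these cells. PROX1 moved from percentile 27.8 to 48.2, CEBPB to 25.5 and ONECUT1 to 29.3, and FOXA2 was lowest at 15.7. Across the 11634 genes the ratio had a Spearman correlation of 0.17 with coding GC content and 0.19 with coding share, and these points share the same libraries.

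**Figure D2:**
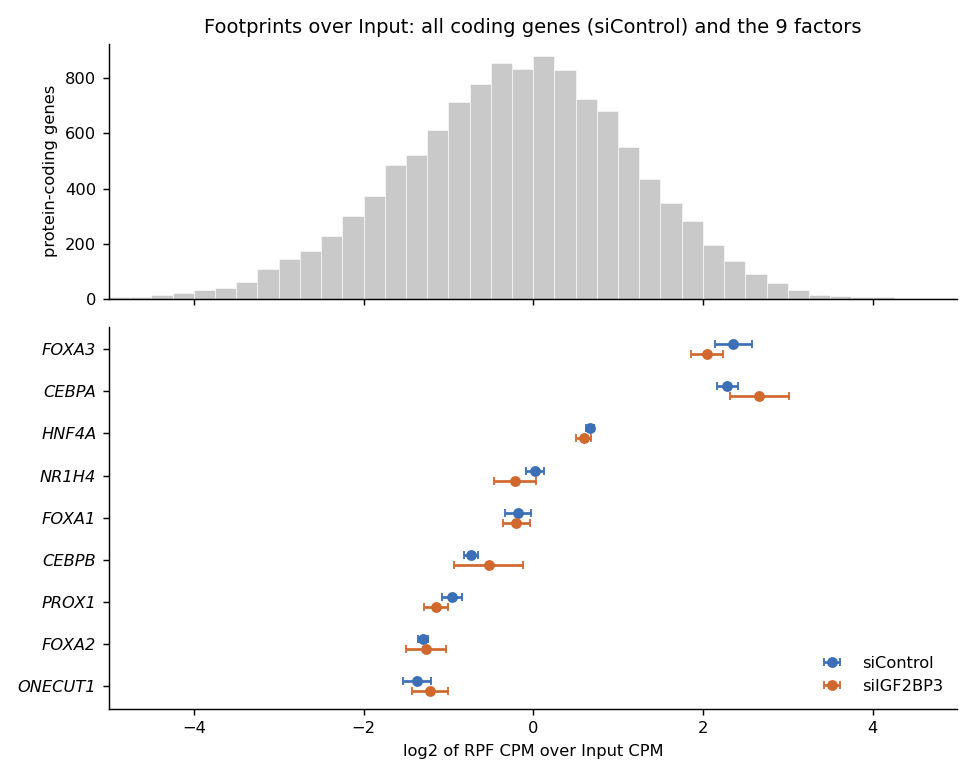
Upper panel, number of protein-coding genes by log2 ratio of RPF CPM to Input CPM in siControl, in bins of 0.25 between -5 and 5. Lower panel, the ratio of each factor in siControl (blue) and siIGF2BP3 (orange), with bars for the combined SD. FOXA3 and CEBPA lie above a log2 ratio of 2 in both conditions, and ONECUT1 and FOXA2 below -1.

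At 5 of the 9 loci exons overlap those of another gene. FOXA2 shares 70 nt of exon with ENSG00000283932 on the same strand, which was at 92.2 CPM in siControl Input against 110.2 ± 4.47 CPM (SD, n = 3) for FOXA2, and the FOXA2 counts were fractional in 9 of 12 libraries, so its level is uncertain. PROX1 shares 171 nt with PROX1-AS1 (7.40 CPM in siControl Input), FOXA1 16 nt with TTC6 (14.4 CPM) and CEBPB 231 nt with CEBPB-AS1 (0.592 CPM), each on the opposite strand, and whether the counting used strand is not given in the sources used here. The antisense lncRNAs ENSG00000267580 and ENSG00000267727 share exon with CEBPA and reached at most 0.178 and 0.0767 CPM in any library. HNF4A-AS1 runs opposite HNF4A without shared exon.

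The question after knockdown was whether transcripts, footprints or their ratio changed. In Input the 9 factors were all tested and 0 were called at an adjusted p under 0.05, where 5.96% of 14759 genes were (edgeR quasi-likelihood test, Benjamini-Hochberg adjustment). That share was 2.95% when the third siControl library was dropped and 3.25% when the third siIGF2BP3 library was. At an unadjusted p under 0.05 the number of factors was 0 as well, against 20.4% of genes, and DESeq2 called 0 of the factors. The median log2 fold change was -0.0007 over the factors and 0.0023 over the genes tested. HNF4A had siIGF2BP3 Input values of 183, 184 and 196 CPM against 185, 176 and 184 CPM in siControl, and its log2 fold change was -0.0007 ± 0.05 SE (edgeR, adjusted p = 0.994), with a 95% confidence interval from a fold of 0.936 to 1.07.

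CEBPA and NR1H4 were the 2 factors whose Input groups did not overlap. CEBPA had siIGF2BP3 Input values of 14.2, 14.2 and 14.4 CPM, just under the lowest siControl library at 14.5 CPM, and its log2 fold change was -0.16 ± 0.10 SE (edgeR, adjusted p = 0.378). These siIGF2BP3 values lay closer together (CV 0.706%) than the CV of 7.72% that counting error alone gives at their depth. NR1H4 had siIGF2BP3 Input values of 71.7, 63.6 and 61.8 CPM against 61.5, 60.2 and 54.7 CPM in siControl, and its log2 fold change was 0.11 ± 0.07 SE (edgeR, adjusted p = 0.354). Groups did not overlap for 3684 of the 14759 genes tested, a share like that of 2 in 9. FOXA3 had the widest interval, from 0.898 to 1.46 times the siControl level, and that of the other 8 factors lay between 0.774 and 1.18.

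In RPF again 0 of the 9 factors were called, where 1.66% of 20192 genes were (edgeR, adjusted p under 0.05). The share of genes called rested on single libraries. It was 0.0673% after the 2 like siControl libraries had been added together, 0.0532% to 0.0738% without any 1 siControl RPF library, 0.187% and 0.345% without siIGF2BP3 RPF replicates 2 and 3, and 16.5% without siIGF2BP3 RPF replicate 1. At an unadjusted p under 0.05 there was 1 factor, PROX1, against 16.1% of genes with edgeR and 11.6% with DESeq2, which gave the same numbers for the factors. The median log2 fold change was 0.06 over the factors and 0.01 over all genes tested, and without siIGF2BP3 RPF replicate 1 it was -0.05 over the factors and 0.0021 over all genes. PROX1 had siIGF2BP3 RPF values of 69.9, 82.6 and 82.7 CPM against 92.0, 89.0 and 90.7 CPM in siControl. The groups did not overlap, and the log2 fold change was -0.19 ± 0.06 SE (edgeR, adjusted p = 0.164), a fold between 0.798 and 0.963. Its Input values were 168, 179 and 173 CPM in siIGF2BP3 against 193, 167 and 169.7 CPM in siControl, and these groups overlapped. PROX1 and CEBPB were the 2 factors whose RPF groups did not overlap, as was so for 5188 of the 20192 genes tested.

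PROX1 was called in 2 of the 14 alternatives tried for RPF. Without siIGF2BP3 RPF replicate 1 its log2 fold change was -0.14 (adjusted p = 0.00831, edgeR), in a fit that called 16.5% of genes, and with an offset for GC content it was -0.17 (adjusted p = 0.0307, edgeR), in a fit that called 5.46%. The fit without replicate 1 left replicates 2 and 3 as the siIGF2BP3 group, which differed by little more than the sampling noise (mean chi-square 1.15). In the other 12 alternatives the adjusted p was between 0.152 and 0.462 and the log2 fold change stayed negative. Leaving out any other RPF library gave 0 calls among the factors.

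CEBPB and CEBPA had the largest footprint differences of the 9, and neither passed the test. CEBPB had siIGF2BP3 RPF values of 107, 66.4 and 65.6 CPM in replicates 1, 2 and 3, against 65.5, 64.0 and 60.3 CPM in siControl. CEBPA had siIGF2BP3 RPF values of 116, 81.5 and 73.7 CPM, against 77.2, 72.5 and 75.2 CPM in siControl. Replicate 1 was the highest library for both, and the lowest siIGF2BP3 value of CEBPB was level with the highest siControl value. The log2 fold changes were 0.35 ± 0.20 for CEBPB and 0.29 ± 0.17 for CEBPA (SE, adjusted p = 0.45 and 0.467, edgeR). Without siIGF2BP3 RPF replicate 1 they were 0.06 and 0.05 (adjusted p = 0.378 and 0.577, edgeR), and with the GC offset 0.17 and 0.12 (adjusted p = 0.156 and 0.18, edgeR).

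In that library the departure of a factor from the rest of its group was read beside its GC content. Replicate 1 over the mean of replicates 2 and 3 gave 1.62 for CEBPB and 1.50 for CEBPA, whose exons have GC contents of 66.2% and 65.9%, and 1.33 for FOXA2 at 59.2%. It gave 0.770 for NR1H4 at 40.5% and 0.846 for PROX1 at 41.3%. The order was not the same throughout, since FOXA3 at 61.2% had 1.12, below FOXA1 with 1.21 at 51.5% and ONECUT1 with 1.24 at 56.3%, and HNF4A had 1.08 at 53.4%. Over 9829 coding genes of at least 5 CPM the median of this ratio was 0.869 below 40% GC and 1.29 at 60% GC or more, and the ratio correlated with GC content across these genes (Pearson r = 0.673, Spearman rho = 0.642), which share the libraries and are not independent replicates. Without the library FOXA1, FOXA2 and NR1H4 also turned sign, to -0.05, -0.08 and 0.03 on the log2 scale (adjusted p = 0.466, 0.197 and 0.758, edgeR).

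**Figure D3:**
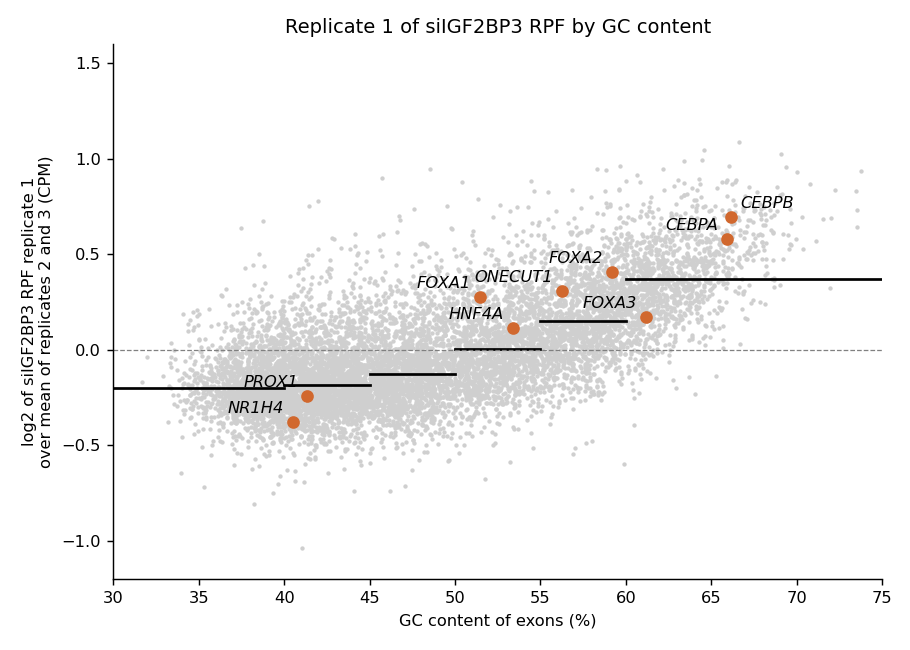
The log2 ratio of siIGF2BP3 RPF replicate 1 to the mean of replicates 2 and 3 (y axis, CPM) against the GC content of exons in percent (x axis), for 9829 coding genes (grey), their medians in GC bins (black lines) and the 9 factors (orange). CEBPA and CEBPB lie at the GC-rich, high end and NR1H4 and PROX1 at the GC-poor, low end.

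The remaining factors had footprint levels close to those of siControl. HNF4A had a mean of 288.9 ± 3.78 CPM in siControl RPF and 283.2 ± 14.1 CPM in siIGF2BP3 RPF (SD, n = 2 and 3), and its log2 fold change was -0.02 ± 0.06 SE (edgeR, adjusted p = 0.946). FOXA3 was at 22.2 ± 0.28 CPM in siControl RPF and 21.3 ± 1.57 CPM in siIGF2BP3 RPF, ONECUT1 at 5.72 ± 0.53 and 6.19 ± 0.80 CPM and FOXA1 at 48.9 ± 2.57 and 50.1 ± 5.76 CPM (SD, n = 2 and 3). FOXA2 was at 44.9 ± 0.59 and 47.1 ± 8.0 CPM and NR1H4 at 59.5 ± 2.14 and 56.5 ± 8.21 CPM, with the larger spread in siIGF2BP3. None of these 6 passed the test, and their groups overlapped.

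Translational efficiency (TE), the change of RPF relative to that of Input, was tested as the interaction of assay and knockdown over the 12 libraries. Of the 9 factors 0 were called, where 2.21% of 13395 genes were (edgeR, adjusted p under 0.05). That share was 1.04% after the same 2 siControl libraries had been added together, and between 0.935% and 2.24% without any 1 library except siIGF2BP3 RPF replicate 1. At an unadjusted p under 0.05 the number was 0 with edgeR, against 15.8% of genes, and 1, CEBPA, with DESeq2, against 13.3% of genes, and DESeq2 called 0. The median log2 TE change was 0.05 over the factors and 0.0036 over the genes tested, and without siIGF2BP3 RPF replicate 1 it was -0.06 over the factors and -0.0052 over the genes. CEBPA had the largest TE change at 0.44 ± 0.24 (SE, adjusted p = 0.402, edgeR), an interval of folds from 0.948 to 1.94, with its Input value lower and its RPF value higher after knockdown. Without siIGF2BP3 RPF replicate 1 it was 0.21 (adjusted p = 0.193, edgeR), in a fit that called 9.99% of genes and 0 of the factors. CEBPB was at 0.27 ± 0.22 (SE, adjusted p = 0.623, edgeR) and at -0.0017 without that library. The largest value in the other direction was that of FOXA3, at -0.25 ± 0.17 (SE, adjusted p = 0.529, edgeR), and the other 6 factors lay between -0.17 for NR1H4 and 0.21 for ONECUT1 (adjusted p = 0.51 and 0.569, edgeR).

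The factors also spanned a wide range of RPF/Input ratios after knockdown. In siIGF2BP3 the ratio was 6.35 for CEBPA (log2 2.67 ± 0.34, percentile 98.3) and 4.15 for FOXA3 (log2 2.05 ± 0.19, percentile 95.5), and these were again the highest of the 9. It was 1.51 for HNF4A, 0.872 for FOXA1 and 0.860 for NR1H4. CEBPB was at 0.695, with a log2 SD of 0.41 against 0.09 in siControl, and PROX1, ONECUT1 and FOXA2 were at 0.452, 0.431 and 0.417. The median of coding genes was 0.860.

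**Figure D4:**
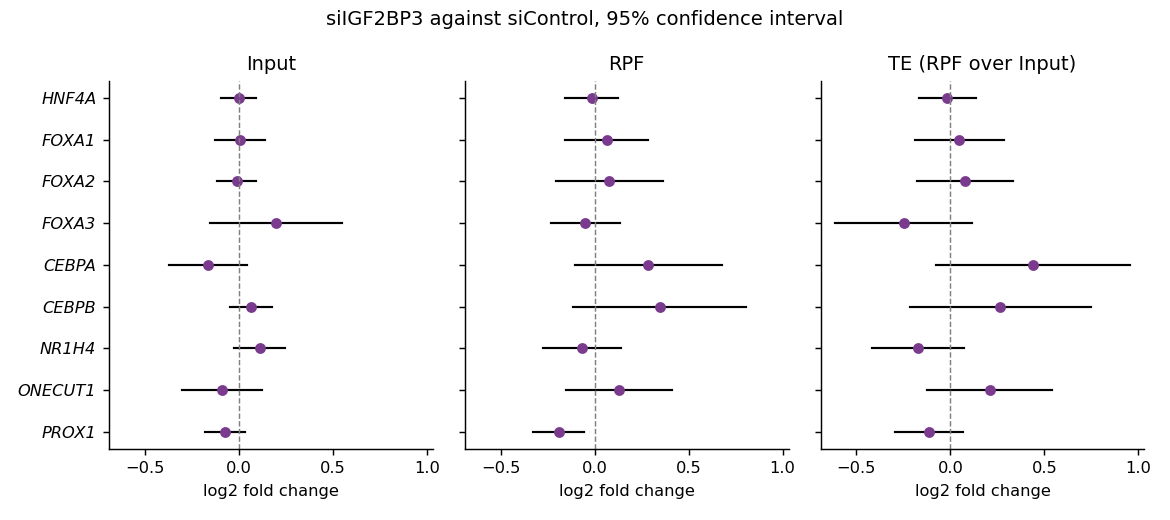
Log2 fold changes of siIGF2BP3 against siControl for the 9 factors in Input, RPF and TE (x axes), with 95% confidence intervals from the edgeR fits. Each interval except that of PROX1 in RPF includes 0, and those of CEBPA and CEBPB are the widest in RPF.

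Other regulators of the hepatic network, nuclear receptors and co-regulators among them, were read from a list of 28. In RPF and in TE 27 were tested and 0 were called by edgeR or by DESeq2, with median log2 fold changes of 0.04 and -0.03. At an unadjusted p under 0.05 there were 3 in RPF and 5 in TE with edgeR, and 3 and 4 with DESeq2, which gave no adjusted p for 8 of the 27 in TE. Over all genes tested these shares were 16.1% and 15.8% with edgeR and 11.6% and 13.3% with DESeq2. Of the other C/EBP family genes 3 of 4 were tested, with 0 calls and 0 at an unadjusted p under 0.05 in the 3 comparisons, by edgeR and by DESeq2.

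Genes regulated by these factors were read from lists. Of 11 bile acid genes under NR1H4, 1 of 7 tested rose in Input, 1 of 8 fell in RPF and 1 of 7 fell in TE. Over all genes tested 4.05% rose and 1.9% fell in Input, 0.649% fell in RPF and 1.42% fell in TE. SLC51A, a subunit of the bile acid exporter OST and a target of NR1H4, rose in Input from a mean of 46.1 ± 3.80 CPM to 61.7 ± 4.33 CPM (SD, n = 3 in both groups). Its log2 fold change was 0.37 ± 0.07 SE (edgeR, adjusted p = 0.00149). Its footprint means were 36.2 ± 1.21 CPM in siControl and 31.8 ± 0.91 CPM in siIGF2BP3 (SD, n = 2 and 3), and its TE fell by 0.53 on the log2 scale (adjusted p = 0.0056, edgeR), and both calls held in the alternatives tried. CYP7A1, the rate-limiting enzyme of bile acid synthesis, fell in RPF from a mean of 1.75 ± 0.05 CPM to 0.650 ± 0.16 CPM (SD, n = 2 and 3), and its log2 fold change was -1.34 ± 0.17 SE (edgeR, adjusted p = 0.017). That call was lost when siControl RPF replicates 2 and 3 were summed, and also without any single RPF library except siIGF2BP3 RPF replicate 1, in fits that called 11 to 70 genes in all, and DESeq2 gave no adjusted p. The log2 fold change stayed between -1.43 and -1.23 in the alternatives. In Input CYP7A1 was near 0, with means of 0.3068 CPM in siControl and 0.3512 CPM in siIGF2BP3, and it was not tested in Input or TE. Of 5 gluconeogenic and fasting genes 1 was called in Input and 0 in RPF or TE. That gene was IGFBP1, a secreted binding protein of insulin-like growth factors. It fell in Input from a mean of 698 ± 19.5 CPM to 624 ± 5.34 CPM (SD, n = 3 in both groups), by 0.21 on the log2 scale (adjusted p = 0.00337, edgeR). IGFBP1 was called in Input in the 13 alternatives. Its log2 fold change was -0.07 in RPF and 0.14 in TE (adjusted p = 0.866 and 0.673, edgeR).

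Of the 8 hepatocyte markers, 5 (ALB, AFP, APOA1, SERPINA1 and TF) fell in Input and 0 were called in RPF or TE. Their median log2 fold change was -0.21 in Input, -0.05 in RPF and 0.13 in TE. The medians of all genes tested were 0.0023, 0.0086 and 0.0036. The lowest adjusted p of the 8 was 0.0695 in RPF, for TF, and 0.099 in TE, for APOA1 (edgeR). Over all genes tested 1.9% fell in Input, 0.649% in RPF and 1.42% in TE. The summed Input level of the 8 was between 56580 and 57230 CPM in siControl libraries and between 51930 and 52050 CPM in siIGF2BP3 libraries. The ALB call was lost without siControl Input replicate 3 or siIGF2BP3 Input replicate 3, and the other 4 held in the 13 alternatives. Of the 4 cholangiocyte markers 3 were tested in Input, and KRT19, a keratin of bile duct cells, fell as well, from a mean of 566 to 496 CPM, by 0.24 on the log2 scale (adjusted p = 0.000791, edgeR), in the 13 alternatives too. SOX9 and EPCAM were at -0.05 and -0.11 (adjusted p = 0.564 and 0.21, edgeR), and the summed cholangiocyte level was between 1117 and 1150 CPM in siControl Input and between 1043 and 1067 CPM in siIGF2BP3 Input. None of these markers was called in RPF or TE, and their part in the result was not tested. In the same Input libraries 0 of the 9 lineage factors were called, and any relation between the factors and these transcripts was not tested. In bulk libraries a change in the number of cells of a kind and a change in RNA per cell cannot be told apart.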

How the data were processed

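HepG2 Input and RPF libraries (3 per group, 4 groups) were taken from the deposited gene tables. Per the labels, the authors used Cutadapt for trimming, STAR for alignment to hg38 and featureCounts for counting. Versions, strand and multi-mapping options are not given in the sources used here. The deposited values are estimated counts, partly fractional, as splitting a read between alignments gives, and they were rounded before testing (at most 0.0445% of a library total). The library protocol in the labels describes footprints, so how Input libraries were made is not given. Whether replicates were separate cultures is not stated, so p-values measure the spread between these libraries, which may be technical. GENCODE release 44 supplied symbols for 58207 identifiers (99.12%), matched without version, and unmatched identifiers held 0.566% of counts. Sequences and reading frames were read from hg38 and the canonical GENCODE transcripts.

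Tests used edgeR 4.0.16 (R 4.3.3): filterByExpr, TMM factors (within each assay for TE), robust quasi-likelihood fits over all genes, Benjamini-Hochberg adjustment and a threshold of 0.05. Standard errors came from the estimate and its F statistic, and 95% intervals from the moderated degrees of freedom. CPM used library totals. Scripts were tested on simulated data. Whether reads carried molecular identifiers is not given in the sources used here. Counting error alone reached the observed CV in 8 of the 36 combinations of factor and group, over 6 factors. Alternatives were DESeq2 1.42.0, RLE factors, a replicate block, no low-count filter, a filter at a mean of 5 CPM, offsets for GC content and exon length (span 0.3, recentred on the median fold change), siControl RPF replicates 2 and 3 summed, and each library left out. For the siIGF2BP3 RPF/Input ratio, TMM factors and each replicate left out were added after seeing the data.

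Same-numbered RPF libraries deviated together (correlations of deviations 0.398, 0.345 and 0.139), so the numbers may pair the RPF libraries. Those of Input (0.034, -0.011 and -0.038) did not deviate together. Replicates 2 and 3 were alike in both RPF groups (mean chi-square 0.941 and 1.15). The RPF correlations thus rest mostly on replicate 1, are not 3 independent values and cannot settle the pairing. The factors, lists and tests were chosen with earlier results of these data known. Besides the 9 factors and the targeted gene, genes of the lists were named where called or overlapping a factor, and no factor was called, so no genes of like pattern were named. A result in Input that belongs to the list of other hepatic regulators is not reported here.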

Additional observations from a re-analysis of the deposited data

How the results depend on the processing

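The number of factors called was 0 in Input under 13 alternatives and in TE under 20. In RPF it was 0 under 12 of 14 alternatives and 1 with the GC offset, and between 0 and 1 when each library was left out, the 1 being PROX1. With the replicate block 0 factors were called in each comparison, and PROX1 in RPF was at -0.19 on the log2 scale (adjusted p = 0.211, edgeR), and the paired fit changed no call of a factor. Signs turned only for log2 fold changes near 0 or carried by siIGF2BP3 RPF replicate 1. HNF4A in Input was 0.0095 with a mean of at least 5 CPM, FOXA2 in Input 0.0198 with the length offset, and HNF4A with the length offset 0.0018 in RPF and 0.0185 in TE. With each library left out, the log2 fold change in Input was -0.0289 to 0.0136 for HNF4A, -0.0676 to 0.0424 for FOXA1 and -0.0537 to 0.0105 for FOXA2. In RPF it was -0.0744 to 0.0285 for HNF4A, -0.0524 to 0.13 for FOXA1, -0.0815 to 0.17 for FOXA2, -0.12 to 0.01 for FOXA3 and -0.13 to 0.0277 for NR1H4. In TE it was -0.0669 to 0.029 for HNF4A, -0.0556 to 0.13 for FOXA1, -0.0631 to 0.16 for FOXA2 and -0.0017 to 0.39 for CEBPB. The cause was not tested. FOXA3 was not fitted in Input and TE with a mean of at least 5 CPM, and DESeq2 gave it no adjusted p in Input. The median over the factors turned sign without siIGF2BP3 RPF replicate 1 in RPF and TE, and in Input, where it was near 0, lay between -0.0289 and 0.0136 with each library left out. The 45 values of the siControl RPF/Input ratio under alternatives moved by less than the spread, as did 36 of the siIGF2BP3 ratio under alternatives chosen after seeing the data. With a replicate left out this could hardly be otherwise, since the spread came from the same libraries, so it does not show that the ratio is stable. With each replicate left out the siIGF2BP3 log2 ratio was 2.44 to 2.80 for CEBPA and -0.84 to -0.38 for CEBPB. Depth limits FOXA3 in Input most.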
